A study of Mus musculus with 10 samples.

Results

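Cluster 6 of the colonic crypt cells comprised every kept cell of the normal or the DSS crypt library whose deposited annotation begins with the number 6. It held 221 of the 3065 kept colonic cells and of the 25204 kept cells of the series, 64 from normal mice and 157 from mice given dextran sulfate sodium (DSS), a salt that injures the colonic epithelium. The annotation gives it no cell type name beyond the word other. By the marker genes it was a colonocyte-like cluster, that is, it resembled the mature absorptive cells of the colon.

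The series profiled single cells of mouse intestinal organoids in 8 libraries and of colonic crypts in 2 libraries by droplet-based 3' RNA sequencing. The organoid groups are named by culture medium. ENR holds EGF, Noggin and R-Spondin, Hyper is the study's medium with the epigenetic modulators VPA and EPZ6438, and -VE is that medium without them. These groups were not compared here, except for one set of levels. The labels describe the normal crypt library as crypts of normal mice and the DSS crypt library as crypts of DSS-treated mice, and name neither strain, sex, age, colon segment nor number of pooled mice. For colitis the methods describe 8-week-old female mice given DSS in drinking water and then plain water. The day on which the sequenced crypts were taken is not given in the sources used here.

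Colonocytes take up salt, water and short-chain fatty acids at the colonic surface, and they are renewed from stem cells at the crypt base. A bile acid route of the lower intestine begins with the apical uptake carrier Slc10a2. Fabp6 binds bile acids in the cytoplasm, and the basolateral pair Slc51a and Slc51b exports them. The nuclear receptor Nr1h4 (FXR) senses them and is known to act on several of these genes. Reg3b and Reg3g are secreted lectins that bind bacteria, and they are known to respond to microbes and to cytokines that signal through STAT3.

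Values are unique molecular identifiers (UMIs, 1 per captured transcript molecule) summed over the cells of the cluster in a library and given as counts per 1000000 UMIs (CPM). Intervals are exact 95% Poisson intervals for levels, exact binomial intervals for shares and conditional binomial intervals for folds. All of them cover counting error only. There was 1 library per condition, so no test was possible, and every difference is between these libraries. A gene was compared at 10 CPM or more in either library and counted as higher or lower at a 2-fold ratio of CPM + 1.

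Both libraries sampled the cluster deeply. The normal cells held 1157 to 61403 UMIs, with a median of 23255, and the DSS cells held 1017 to 69282, with a median of 22310. The median mitochondrial share was 14.0% in the normal and 13.8% in the DSS cells, and 28 of 64 and 56 of 157 cells lay above 15%, close to the 20% bound that the kept cells met. Among the other kept cells 16.2% and 11.3% lay above 15%. Of the cell barcodes, 2 were shared between the libraries, and 0 of these belonged to cluster 6. The libraries also differed in sex-linked transcripts. Xist, the X-inactivation transcript of female cells, was at 452 CPM (95% interval 419 to 488) in the normal cells and rested on 1 UMI in the DSS cells. The Y-linked Eif2s3y had 0 UMIs in the normal cells and 65.4 CPM (57.0 to 74.6) in the DSS cells. The 0 UMIs allow up to 2.48 CPM by the Poisson interval. For the colitis model the methods state female mice, which the Y-linked transcripts of the DSS library go against. Sex and DSS therefore cannot be told apart in any comparison of these libraries.

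The sequences of 4 promoters are shown because these genes carry the 2 findings that follow, the bile acid exporter pair, which was higher than in the other colonic cells, and the lectin pair among the genes highest in DSS. Each is the 300-base RefSeq window (GRCm38.p6, 250 bases before the start and 50 after), written 5′ to 3′ on the gene's strand. Distances are from the RefSeq start. For Slc51b and Reg3b this start lies inside the GENCODE gene span given further below. Capitals mark AGGTCA, a hexamer that many nuclear receptors bind, in Slc51a and Slc51b, and the STAT-type motif TTCNNNGAA and TATAAA in Reg3b and Reg3g, each searched on both strands.
Slc51a, chr16:32487830-32488129, minus strand: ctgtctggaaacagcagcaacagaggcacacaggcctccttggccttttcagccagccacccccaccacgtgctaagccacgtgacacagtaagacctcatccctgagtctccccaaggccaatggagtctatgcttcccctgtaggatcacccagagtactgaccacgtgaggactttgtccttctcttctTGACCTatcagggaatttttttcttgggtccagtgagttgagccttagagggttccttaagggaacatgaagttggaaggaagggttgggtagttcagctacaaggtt
Slc51b, chr9:65422724-65423023, minus strand: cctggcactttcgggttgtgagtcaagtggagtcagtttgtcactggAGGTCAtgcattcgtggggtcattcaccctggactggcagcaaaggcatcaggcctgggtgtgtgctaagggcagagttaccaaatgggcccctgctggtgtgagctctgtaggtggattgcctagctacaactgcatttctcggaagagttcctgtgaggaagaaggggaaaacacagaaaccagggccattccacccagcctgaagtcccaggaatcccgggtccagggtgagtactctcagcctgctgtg
Reg3b, chr6:78370635-78370934, plus strand: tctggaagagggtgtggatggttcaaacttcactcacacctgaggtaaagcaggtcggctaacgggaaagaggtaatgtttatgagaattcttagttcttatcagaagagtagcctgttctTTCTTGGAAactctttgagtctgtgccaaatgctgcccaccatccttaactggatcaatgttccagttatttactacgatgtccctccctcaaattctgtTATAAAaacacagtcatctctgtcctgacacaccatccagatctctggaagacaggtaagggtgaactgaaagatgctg
Reg3g, chr6:78468825-78469124, minus strand: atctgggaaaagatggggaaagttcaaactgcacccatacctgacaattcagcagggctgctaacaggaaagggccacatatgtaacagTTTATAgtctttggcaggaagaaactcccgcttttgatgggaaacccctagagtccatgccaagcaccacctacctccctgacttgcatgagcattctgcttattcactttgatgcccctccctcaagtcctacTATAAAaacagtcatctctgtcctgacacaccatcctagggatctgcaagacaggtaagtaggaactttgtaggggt
The AGGTCA match began 58 bases before the start of Slc51a and 203 before that of Slc51b, and 16.3% of the 32851 RefSeq promoter windows held this hexamer. Reg3b held 1 TTCNNNGAA match, 129 bases before the start, and Reg3g held 0, against 8.3% of all windows. TATAAA lay 29 bases before the start of Reg3b and 161 and 27 bases before that of Reg3g, against 13.6% of windows. TTCNNNGAA also matched once in Slc51b, 65 bases before the start. None of the 3 motifs overlapped another in these windows. These matches describe letters in the windows and not bound sites.

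The identity of the cluster was read against the other kept cells of the same library. This is a description without a test, since the cells were clustered on these genes. Of the 12 colonocyte markers, 9 were higher than in the other cells in both libraries. The share of all genes higher in both was not set beside this count. Some of the 9 were higher by little, such as Guca2b at 63.3 against 55.4 CPM in the normal and 75.2 against 64.1 CPM in the DSS library. Car1, Slc51a and Cyp2c55 are also among the leading genes of this same comparison, given below. Car1, the cytosolic carbonic anhydrase of colonocytes (chr3:14766216-14808368), was at 31540 CPM in the normal and 22813 CPM in the DSS cells, against 3999 and 2862 CPM in the other cells. Every cell of the cluster held Car1 UMIs, from 4211 to 64525 CPM in the normal library (median 30912) and from 1967 to 72005 CPM in the DSS library (median 20196). Krt20, a keratin of differentiated surface cells, was at 1323 and 1229 CPM against 573 and 351 CPM. Guca2a, which encodes the luminal peptide guanylin, was at 3381 and 2373 CPM against 2286 and 615 CPM.

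The exceptions in the colonocyte list were Aqp8, Slc37a2 and Slc26a3. The water channel Aqp8 was lower in cluster 6 than in the other cells, at 22.9 against 129 CPM in the normal library and at 47.3 against 122 CPM in the DSS library. In the normal cells 73.5% of its UMIs came from 1 cell. Slc37a2 was near 0, at 0.673 CPM in the normal and 0.297 CPM in the DSS cells. Slc26a3, the chloride and bicarbonate exchanger, was at 187 against 228 CPM in the normal library and at 210 against 88.4 CPM in the DSS library.

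Markers of other cell types were low. Of 12 stem cell markers, 11 were lower than in the other cells in both libraries, and Lgr5 had 0 UMIs in either. The share of all genes lower in both was not set beside this count. The summed level of the 12 goblet cell markers was 174 CPM in the normal and 320 CPM in the DSS cells, against 9861 and 7727 CPM outside the cluster. The 12 enteroendocrine markers summed to 1.35 and 12.5 CPM, and the 12 tuft cell markers to 18.2 and 2.97 CPM. The 6 pan-leukocyte markers summed to 1.35 and 2.68 CPM, and 0 of 64 and 1 of 157 cells held a UMI of Ptprc, the leukocyte surface phosphatase. The fibroblast list summed to 0 and 0.297 CPM, and the smooth muscle list was at 0 in both. The plasma cell list was at 0 in the normal and 17.8 CPM in the DSS cells, and the neutrophil list at 0 and 34.8 CPM, where the other cells of the DSS library held 4524 and 3021 CPM of these lists.

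Cycling markers summed to 222 and 180 CPM against 757 and 675 CPM in the other cells, and the 6 deep crypt secretory markers to 30.3 and 8.92 CPM against 9719 and 477 CPM. The 9 pan-epithelial markers summed to 28568 and 27984 CPM, and Krt18 was the member lower than in the other cells in both libraries. Paneth, T cell, mast cell and erythroid lists summed to 8.08, 2.69, 0.673 and 2.69 CPM in the normal cells and to 0.892, 3.86, 19.0 and 0.297 CPM in the DSS cells. Macrophage, dendritic cell, B cell, endothelial and glia lists were at 0 in the normal cells, and the largest of them in the DSS cells was the endothelial list at 1.78 CPM.

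Of 6259 genes at 10 CPM or more in both libraries, 171 were at least 2-fold above the other colonic cells in both libraries (2.73%). The 10 genes with the largest ratio among those at 50 CPM or more were Slc51a, Slc10a2, Mal, Car1, Cyp2c55, 1810065E05Rik, Aldh1a1, Reg3b, Tmigd1 and Fmo5. Slc51a and Slc10a2 belong to the bile acid route and led the list. The export subunit Slc51a (chr16:32474504-32487879) was at 729 CPM (686 to 774) in the normal and 479 CPM (456 to 503) in the DSS cells, against 45.5 and 40.1 CPM in the other cells. The uptake carrier Slc10a2 (chr8:5083219-5105351) was at 115 CPM (98.5 to 134) and 79.1 CPM (69.9 to 89.2), against 5.37 and 6.20 CPM. Cluster 6 held 7.46% of the UMIs of the normal kept cells and 10.4% of those of the DSS kept cells. It held 56.3% and 58.1% of the Slc51a UMIs, and 63.3% and 59.6% of the Slc10a2 UMIs.

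Mal, a proteolipid of apical membrane traffic, was at 156 CPM in the normal and 176 CPM in the DSS cells, against 11.1 and 16.2 CPM in the other cells. Cyp2c55, a cytochrome P450 gene, was at 1572 and 864 CPM against 220 and 72.5 CPM. Aldh1a1, which makes retinoic acid, was at 423 and 462 CPM against 67.0 and 51.0 CPM. The flavin monooxygenase gene Fmo5 was lowest of the 10, at 57.2 and 72.5 CPM against 5.48 and 11.9 CPM.

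The other genes of the bile acid route were looked up after these values were seen. Slc51b, the partner subunit of Slc51a (chr9:65412714-65422955), was at 393 CPM in the normal and 288 CPM in the DSS cells, against 84.2 and 43.9 CPM in the other cells. Nr1h4 (chr10:89454234-89533585) was at 197 and 177 CPM against 65.9 and 58.6 CPM, and Abcc3, an export pump of organic anions including bile acids, at 276 and 280 CPM against 96.2 and 91.3 CPM. Fgf15, the hormone that Nr1h4 is known to induce in the ileum, had 0 UMIs in the normal and 3 UMIs, all in 1 cell, in the DSS cells. So the carriers and the receptor were present in both libraries, and the hormone was at or near 0.

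The carriers were not spread alike over the cells. Slc51a was found in 63 of 64 normal and 138 of 157 DSS cells, with medians of 793 and 418 CPM and highest cells at 1912 and 1687 CPM. Slc10a2 was found in 40 of 64 and 79 of 157 cells, with medians of 49.1 and 19.6 CPM and highest cells at 1470 and 1389 CPM. After each cell was thinned to 5000 UMIs, which left out 10 normal and 32 DSS cells, Slc51a was detected in 90.7% of normal cells (79.7 to 96.9) and 78.4% of DSS cells (70.2 to 85.3). In cluster 1 of the same libraries, at the same depth, it was detected in 61.9% of 84 normal and 40.8% of 191 DSS cells. In clusters 2 and 5 of the same libraries, at the same depth, it was detected in between 1.48% and 4.4% of cells. Slc10a2 was detected in 27.8% and 28.8% of the thinned cells of cluster 6 and in 4.76% and 2.62% of those of cluster 1. In clusters 2 and 5 it was detected in 1 of 91 and 1 of 65 normal and in 0 of 143 and 0 of 135 DSS cells. By the exact binomial interval the 0 counts allow up to 2.55% and 2.70% of cells with a detected UMI at this depth. They do not bound the share of cells that hold the transcript. Slc51b was detected in 87.0% of the thinned normal and 69.6% of the thinned DSS cells of cluster 6. Slc51a and Slc51b were detected together in 79.6% of the thinned normal cells (66.5 to 89.4) and 56.8% of the DSS cells (47.6 to 65.6). Whether the pair was found together more often than the single shares alone would give was not tested. Slc51a, Slc51b and Slc10a2 were detected together in 13 of 54 normal (24.1%, 13.5 to 37.6) and 30 of 125 DSS cells (24.0%, 16.8 to 32.5).

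**Figure D1:**
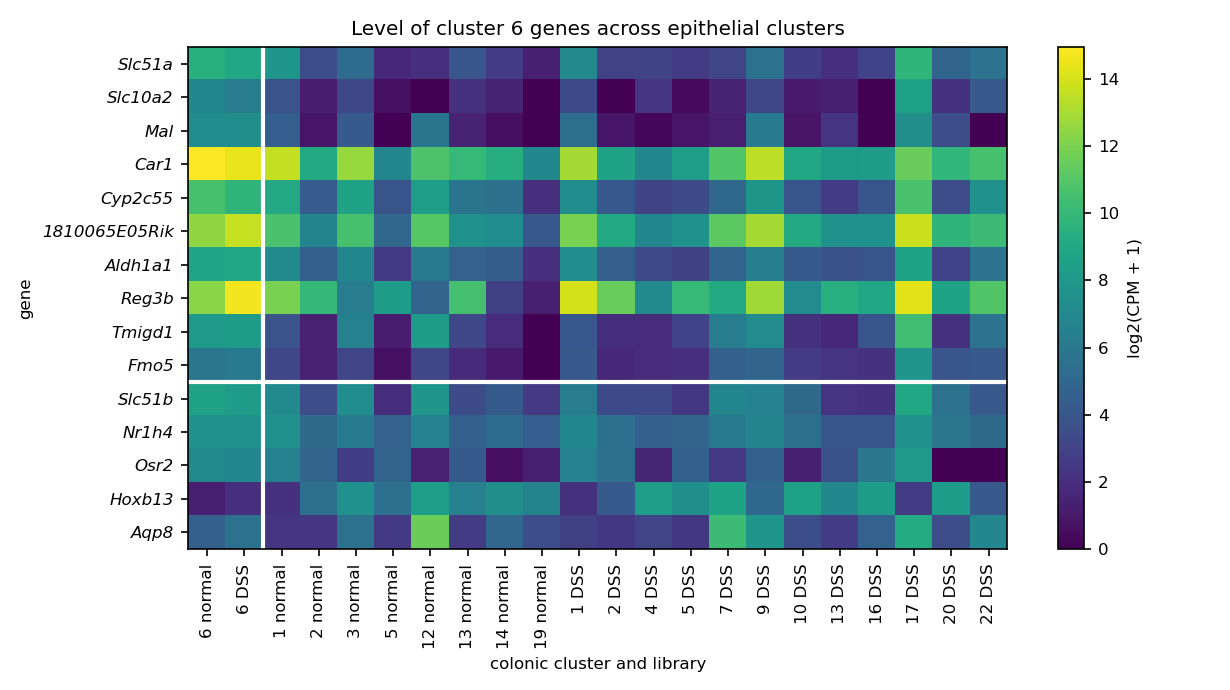
Level (log2 of CPM + 1, colour) of the 10 leading genes of cluster 6 (above the white line) and 5 further genes, in each cluster of at least 20 cells that was poor in Ptprc, with its library named on the horizontal axis. The cluster 6 columns stand first: Car1 reached 31540 and 22813 CPM there, and Hoxb13 (dark, low) was at 1.35 and 3.27 CPM.

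Across the clusters that were poor in Ptprc and held at least 20 cells, 9 in the normal and 13 in the DSS library, cluster 6 was highest for Slc51a and Slc10a2 in the normal library. In the DSS library it was exceeded by cluster 17, at 860 CPM of Slc51a and 377 CPM of Slc10a2. Slc51b was also highest in cluster 6 in the normal library, followed by cluster 12 at 224, cluster 3 at 162 and cluster 1 at 136 CPM, and in the DSS library it was at 478 CPM in cluster 17, 117 CPM in cluster 7, 98.2 CPM in cluster 9 and 80.6 CPM in cluster 1. Cluster 17 consisted of 57 DSS cells at a median of 2466 UMIs. Of 3346 genes at 50 CPM or more in either of these DSS clusters, 422 were at least 2-fold higher and 744 lower in cluster 6 than in cluster 17, with Car1 at 22813 against 2929 CPM and Saa1 at 964 against 16286 CPM.

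Position along the colon is marked by homeobox genes, of which Hoxb13 is known from the distal end. Hoxb13 and Osr2 were chosen after their values were seen. Hoxb13 (chr11:96194316-96197447) was lowest in cluster 6 of all these clusters, at 1.35 CPM in the normal (2 UMIs) and 3.27 CPM in the DSS cells (11 UMIs). Other clusters reached 330 CPM in the normal and 401 CPM in the DSS library. Osr2, a zinc finger transcription factor gene (chr15:35296098-35303305), ran the other way, at 134 CPM in the normal and 123 CPM in the DSS cells of cluster 6 and at 22.5 and 32.9 CPM in the other cells. Cluster 1 lay beside cluster 6 on both genes, with Osr2 at 94 and 98.0 CPM, and in the DSS library cluster 17 exceeded it, with Osr2 at 271 CPM and Hoxb13 at 5.31 CPM.

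**Figure D2:**
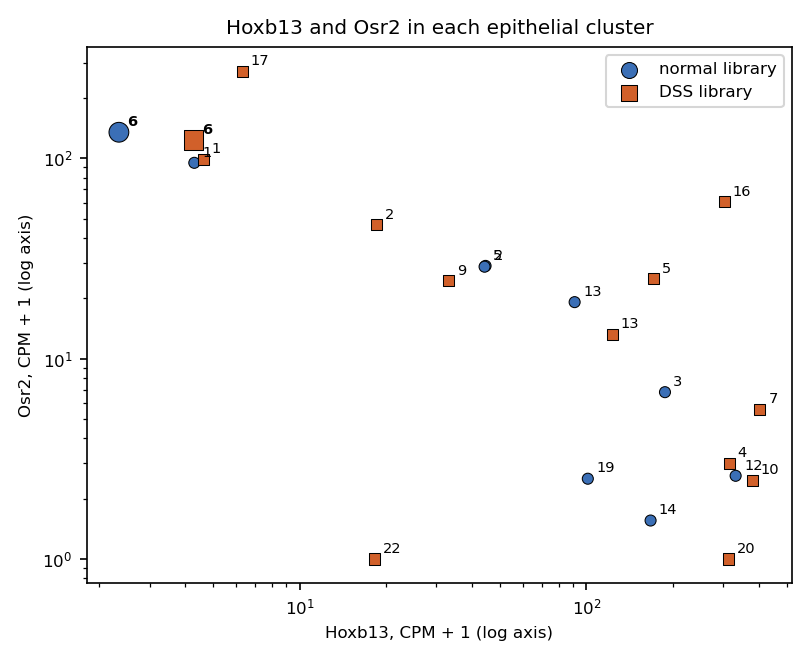
Hoxb13 against Osr2 (CPM + 1, both axes logarithmic) in each cluster of at least 20 cells that was poor in Ptprc, with normal clusters as circles, DSS clusters as squares and cluster numbers beside the points. Cluster 6 (large symbols) sits at the upper left in both libraries, at 1.35 and 3.27 CPM of Hoxb13 and 134 and 123 CPM of Osr2.

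By profile, cluster 6 of one library was most like cluster 6 of the other. Pearson's r of log2 levels was 0.965 over 2818 genes, which are not independent of each other. The next most like were cluster 1 (r of 0.955 in the normal and 0.953 in the DSS library), cluster 3 of the normal library (0.952) and cluster 9 of the DSS library (0.949). By Spearman's rho the order of clusters 1 and 3 turned in the normal library, at 0.914 and 0.923. Cluster 3 held 274 normal cells and 1 DSS cell, and cluster 9 held 2 normal and 108 DSS cells, so each can be set beside cluster 6 in 1 library.

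Of 2650 genes at 50 CPM or more in either cluster in both libraries, 97 were at least 2-fold higher in cluster 6 than in cluster 1 in both libraries and 73 were lower. Tmigd1, a brush border membrane protein gene, was at 267 CPM in the normal and 301 CPM in the DSS cells against 13.2 and 15.9 CPM in cluster 1. Slc9a3, the apical sodium and proton exchanger, was at 76.1 and 129 CPM against 5.77 and 8.15 CPM. Sox9, a transcription factor of the lower crypt, was at 10.8 and 11.9 CPM against 59.3 and 59.8 CPM, and the cyclin gene Ccnd1 at 14.1 and 10.4 CPM against 144 and 74.8 CPM.

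Against cluster 3 of the normal library, 94 of 2906 genes were at least 2-fold higher in cluster 6 and 165 lower. Car1 was at 31540 CPM in cluster 6 and 6259 CPM in cluster 3, and Saa1 ran the other way, at 307 against 1003 CPM. Reg3b was at 4929 CPM in cluster 6 and 80.4 CPM in cluster 3, Reg3g at 489 against 4.64 CPM, and Slc51a at 729 against 36.2 CPM. Hoxb13 was at 1.35 against 187 CPM and the transglutaminase Tgm3 at 4.04 against 338 CPM. Against cluster 9 of the DSS library, 120 of 2836 genes were at least 2-fold higher in cluster 6 and 222 lower. Slc51a was at 479 CPM in cluster 6 and 47.7 CPM in cluster 9, and Slc10a2 at 79.1 against 8.22 CPM. Cluster 9 also held genes that were near 0 in cluster 6. Clu, which encodes the chaperone clusterin, was at 2.68 CPM in cluster 6 and 409 CPM in cluster 9, the tryptophan-degrading enzyme gene Ido1 at 0.297 against 155 CPM, and Nos2, the inducible nitric oxide synthase gene, at 2.68 against 88.8 CPM.

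Between the libraries, cluster 6 made up 5.65% (4.38 to 7.16) of 1132 normal and 8.12% (6.94 to 9.43) of 1933 DSS kept cells. These intervals overlapped. Without the Ptprc-rich clusters in the denominator the shares were 7.01% and 10.6%, and whether their intervals overlap is not given here. A share of kept cells depends on which barcodes were kept, and it does not count cells in the tissue.

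Within the cluster, 7155 genes were compared between DSS and normal crypts, and 212 (2.96%) were at least 2-fold higher in DSS and 225 (3.14%) at least 2-fold lower. The median log2 ratio of all compared genes was -0.05. Of the higher genes 177 were also higher in DSS in the remaining colonic cells, 37 of them by at least 2-fold, and of the lower genes 186 were also lower there, 30 of them by at least 2-fold. The matching shares of all compared genes in the remaining cells were not computed, and the make-up of those cells differed between the libraries. These counts are therefore not read as a shared difference. Among the 12 highest genes were both lectins, and among the 12 lowest the heat shock genes Hspa1a and Hspa1b.

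Reg3b (chr6:78370657-78373466) was at 4929 CPM (4817 to 5043) in the normal and 26543 CPM (26370 to 26718) in the DSS cells, 5.39-fold higher (5.26 to 5.52). In the normal library 26 of 64 cells held a Reg3b UMI, the median cell was at 0 and the highest at 33810 CPM. In the DSS library 155 of 157 cells held one, the median cell was at 20720 and the highest at 95990 CPM. Some normal cells lay within the range of the DSS cells, and 18 of 64 normal cells (28.1%) and 151 of 157 DSS cells (96.2%) were above 1000 CPM. The leukocyte-rich clusters of the same libraries, which should lack the gene, held 28.5 CPM in the normal and 404 CPM in the DSS library.

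Reg3g (chr6:78466269-78468872) was at 489 CPM (454 to 526) in the normal and 4980 CPM (4905 to 5056) in the DSS cells, 10.2-fold higher (9.45 to 11). It was found in 19 of 64 normal cells, at a median of 0 and at most 7317 CPM, and in 147 of 157 DSS cells, at a median of 3795 and at most 27946 CPM. The leukocyte-rich clusters held 0 CPM of Reg3g in the normal and 80.2 CPM in the DSS library. In the normal library 16 cells held both lectins, 10 held Reg3b alone, 3 held Reg3g alone and 35 held neither. After thinning to 5000 UMIs, Reg3b was detected in 35.2% of normal (22.7 to 49.4) and 96.8% of DSS cells (92.0 to 99.1). The genes are close copies in sequence, so reads could have been split between them in counting.

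Both lectins were also higher in DSS in clusters 1, 2 and 5. Reg3b was at 3893 and 16009 CPM in cluster 1 (log2 ratio of 2.04), and its log2 ratios in clusters 2 and 5 were 1.48 and 1.73. Those of Reg3g in clusters 1, 2 and 5 were 2.05, 2.25 and 2.27. In cluster 13 Reg3b went the other way, at 1501 CPM in the normal and 695 CPM in the DSS library. Reg3g was also lower in DSS there, at 353 and 251 CPM (log2 ratio of -0.49). In the normal cells of cluster 6 the top 7 of 64 cells for each gene held 73.2% of the Reg3b UMIs and 86.8% of the Reg3g UMIs. The counting intervals of the folds do not cover this spread between cells. The size of the difference in cluster 6 also differed under a stricter mitochondrial bound. With cells of at most 10% mitochondrial UMIs, which left 8 normal and 35 DSS cells, the log2 ratio of Reg3b was 0.41 rather than 2.43 and that of Reg3g 0.97 rather than 3.34. Whether cell quality, or which few normal cells were left, had a part in the result was not tested.

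**Figure D3:**
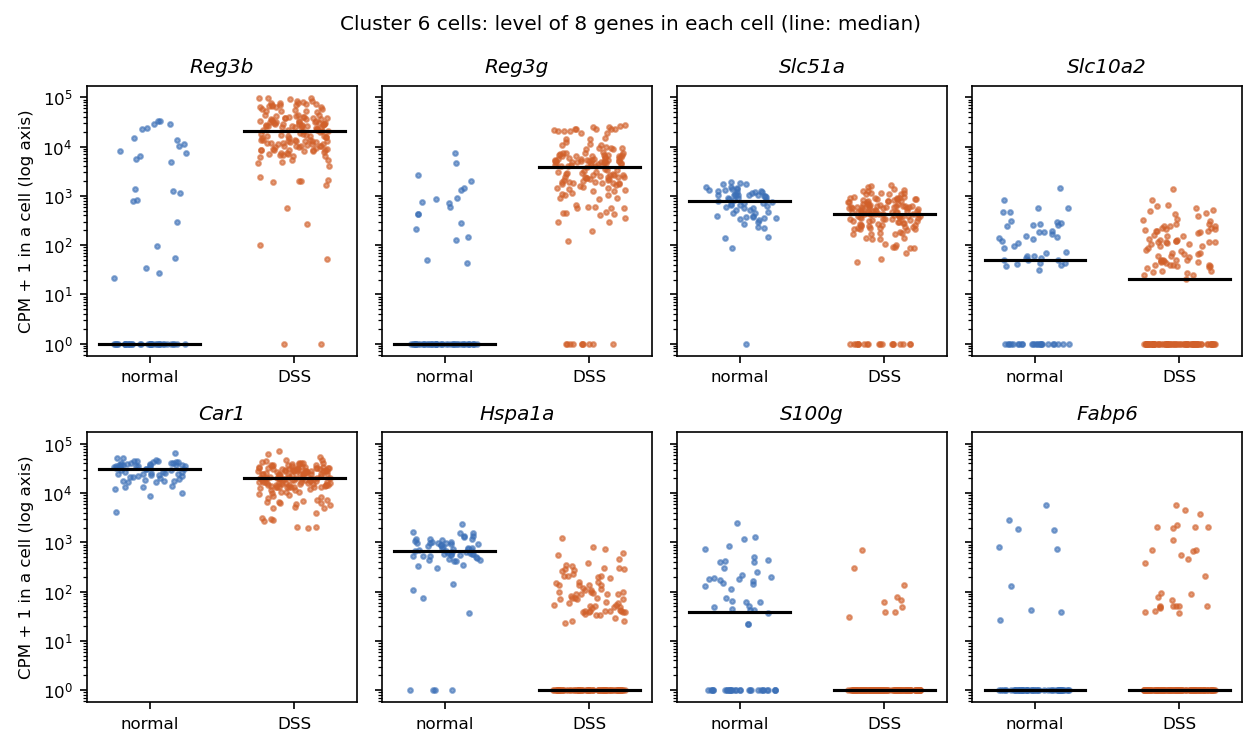
Level of 8 genes in each of the 64 normal and 157 DSS cells of cluster 6 (CPM + 1 in a cell, logarithmic axis; points are cells and black lines are medians; points at 1 are cells without a UMI). Reg3b was present in 26 normal and 155 DSS cells, while Slc51a and Car1 spanned overlapping ranges in both libraries.

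Of the 16 antimicrobial and acute phase genes, 8 were compared, 5 were at least 2-fold higher in DSS, beside 2.96% of all compared genes, and 0 lower, with a median log2 ratio of 1.47 against -0.05 over all compared genes. Besides the lectins these were the acute phase genes Saa1 and Saa3 and the oxidase gene Duox2, which makes hydrogen peroxide at the apical membrane. Saa1 was at 307 CPM (279 to 336) in the normal and 964 CPM (931 to 998) in the DSS cells, and Saa3 at 30.3 CPM (22.1 to 40.5) and 101 CPM (90.3 to 112). The leukocyte-rich clusters held 88.0 and 183 CPM of Saa1 and 1.24 and 37.0 CPM of Saa3, and the part of RNA from other cells in these levels was not tested. Duox2 was at 14.1 and 36.0 CPM. The Saa genes are a family of related sequences, and whether reads were split between its members in counting was not tested. Lypd8, which is secreted against flagellated bacteria, was already abundant, at 10811 and 15081 CPM. The lipocalin gene Lcn2 was at 0 and 0.595 CPM.

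Other genes among the 12 highest in DSS encode secreted, transport and metabolic proteins. Spink1, a secreted trypsin inhibitor gene, was at 41.7 CPM (32.0 to 53.5) in the normal and 320 CPM (301 to 340) in the DSS cells, 7.67-fold higher (5.94 to 10.1), and was found in 20 of 64 and 127 of 157 cells. The leukocyte-rich clusters held 11.2 and 56.2 CPM of Spink1 at median depths of 3517 and 3532 UMIs, so the share of DSS cells with a UMI includes background that was not subtracted. In the cells at 10% or less mitochondrial UMIs its log2 ratio was 0.00. Slc40a1, the basolateral iron exporter ferroportin, was at 101 CPM (85.5 to 118) and 339 CPM (320 to 359), with log2 ratios between 1.22 and 3.11 in the 4 other clusters held by both libraries. Gne, the entry enzyme of sialic acid synthesis, was at 29.6 and 115 CPM. Plet1, an epithelial surface protein gene, was at 6.73 and 51.7 CPM and found in 8 of 64 and 49 of 157 cells, with 3.72 and 12 CPM in the leukocyte-rich clusters. Cyp2d34, a cytochrome P450 gene with close paralogs, was at 19.5 and 66.6 CPM, and its log2 ratios in clusters 1, 2, 5 and 13 were 0.14, -0.04, 1.52 and -0.34.

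The goblet cell genes Spink4 and Zg16 also belong to the 12. Spink4 was at 5.38 CPM in the normal and 58.0 CPM in the DSS cells, and Zg16 at 22.2 and 84.4 CPM. The leukocyte-rich clusters of the DSS library held 221 CPM of Spink4 and 237 CPM of Zg16, more than cluster 6, in cells of a median of 3532 UMIs against 22310. By count these were 424 Spink4 and 456 Zg16 UMIs in 445 leukocyte-cluster cells, and 195 and 284 UMIs in the 157 cells of cluster 6, and the part of background in these levels was not tested. One DSS cell held 31.8% of the Spink4 UMIs and one normal cell 69.7% of the Zg16 UMIs. Outside the 12, the leading gene 1810065E05Rik was at 5571 and 12461 CPM, 2.24-fold higher (2.18 to 2.29). It was present in all cells of both libraries, from 1583 to 14798 CPM in the normal and from 4745 to 25316 CPM in the DSS cells.

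On the lower side, S100g, which encodes the calcium-binding protein calbindin-D9k (chrX:162961992-162964599), was at 172 CPM (151 to 194) in the normal and 5.95 CPM (3.63 to 9.18) in the DSS cells, 28.9-fold lower in DSS (18.3 to 48.1). It was found in 35 of 64 and 10 of 157 cells. Its log2 ratios in clusters 1, 2, 5 and 13 were -5.04, -2.18, 0.74 and -1.19, with 2.36 and 4.63 CPM in cluster 5. Klk1, a tissue kallikrein gene, was at 462 CPM (428 to 498) and 66.9 CPM (58.4 to 76.2). Sult1a1, a phenol sulfotransferase gene, was at 201 and 44.6 CPM, and Ppp1r1b, a phosphatase inhibitor gene, at 61.3 and 11.6 CPM. The log2 ratio of Ppp1r1b was -2.31 in cluster 6 and between -0.46 and 0.15 in clusters 1, 2, 5 and 13. The interferon-inducible Ifi27l2a was at 139 and 28.2 CPM, and in the other colonic cells at 358 and 21.7 CPM. The unnamed gene model Gm42031 was at 61.9 and 0.892 CPM and at 99.8 and 2.72 CPM in the other colonic cells.

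Fabp6 (chr11:43596049-43601540) was the bile acid gene among the 12 lowest, at 303 CPM (276 to 332) in the normal and 54.7 CPM (47.1 to 63.2) in the DSS cells. It was found in 10 of 64 normal and 30 of 157 DSS cells, at a median of 0 in both, and 58.7% of the normal UMIs came from 1 cell. Without the cell with the most UMIs in each library the log2 ratio was -1.48 instead of -2.45, and with each cell weighted equally it was -0.20. The call on Fabp6 therefore rests on a few cells. The carriers had smaller ratios. Slc51a was 1.52-fold lower in DSS (1.41 to 1.65), Slc51b 1.36-fold lower (1.23 to 1.51) and Slc10a2 1.46-fold lower (1.19 to 1.77). Nr1h4 had a fold of 0.900 (0.781 to 1.04) and Abcc3 of 1.02 (0.904 to 1.14). None of these 5 reached a 2-fold ratio in CPM + 1. With cells of at most 10% mitochondrial UMIs Slc51a alone of the 5 did, at a log2 ratio of -1.68.

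**Figure D4:**
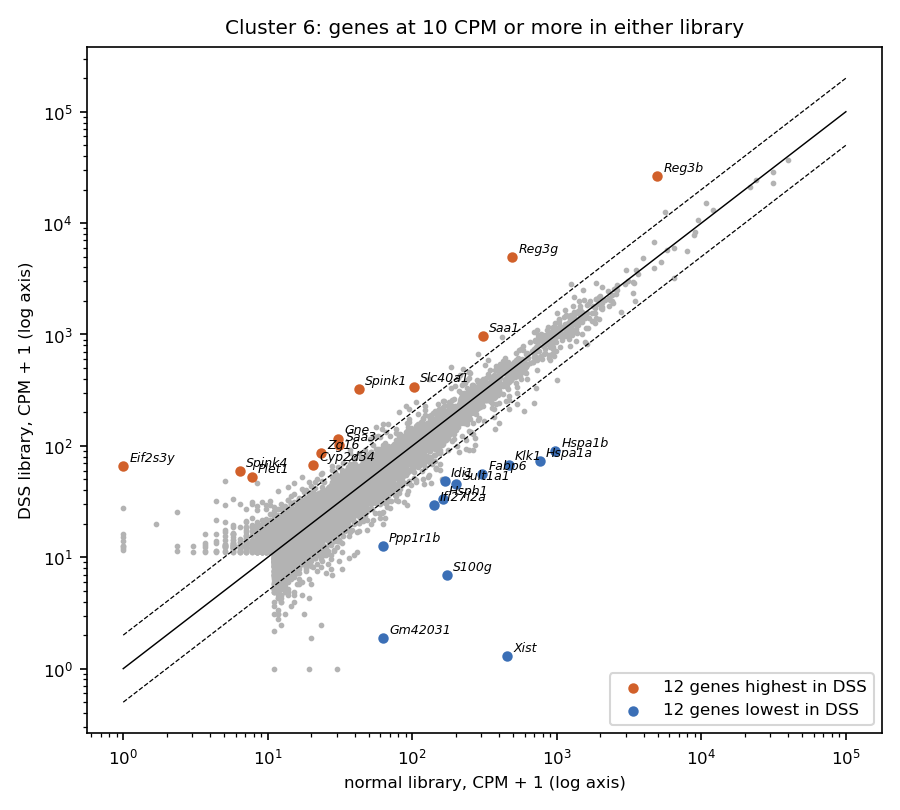
Level in the DSS library against the normal library for the 7155 compared genes of cluster 6 (CPM + 1, both axes logarithmic), with the 12 genes highest and 12 lowest in DSS named, equality as a solid line and 2-fold ratios as dashed lines. Reg3b and Reg3g lie well above the cloud, at 26543 and 4980 CPM in DSS, and the heat shock genes Hspa1a and Hspa1b below it, at 71.6 and 89.5 CPM.

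Hspa1a (chr17:34969190-34972156) was at 763 CPM (719 to 808) in the normal and 71.6 CPM (62.9 to 81.3) in the DSS cells, and its near-identical copy Hspa1b at 973 CPM (924 to 1025) and 89.5 CPM (79.7 to 100.2). The chaperone genes Hsph1, Hsp90aa1 and Dnaja1 were at 161, 596 and 697 CPM in the normal and at 32.1, 203 and 242 CPM in the DSS cells. These 5 were put together after their values in cluster 6 were seen, so their direction there was fixed by the choice. In clusters 1, 2, 5 and 13 all 5 were at least 2-fold lower in DSS too, with medians between -2.46 and -1.98, where 192 of 7521, 364 of 8189, 147 of 8003 and 357 of 8441 genes were. Of 16 genes of immediate early response and dissociation stress, 2 were 2-fold lower, the Hspa1 pair, beside 3.14% of all compared genes in cluster 6, 0 were higher, and the median was -0.01. Fos was at 1571 and 1401 CPM and Jun at 1444 and 1554 CPM.

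The cholesterol synthesis genes were lower as a group. All 13 were compared and had ratios below 0, 8 of them at least 2-fold, beside 3.14% of all genes, with a median log2 ratio of -1.23 against -0.05 over all compared genes. Hmgcs1, the synthase at the start of the pathway, was at 398 CPM in the normal and 159 CPM in the DSS cells, and Idi1, the isomerase of isoprenoid units, at 166 and 47.0 CPM. Cyp51, the lanosterol demethylase, was at 160 and 49.7 CPM. In cluster 1 all 13 were lower too, 10 at least 2-fold, and in cluster 2 all 13, of which 6 were at least 2-fold. Over all genes 192 of 7521 were at least 2-fold lower in cluster 1 and 364 of 8189 in cluster 2. In clusters 5 and 13 none reached a 2-fold ratio, with medians of -0.02 and -0.28. The difference between clusters was not tested.

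The secretory pathway and unfolded protein response genes were lower by less. Of 14 compared, 3 were at least 2-fold lower, beside 3.14% of all compared genes, and 0 higher, with a median of -0.59 against -0.05 over all genes. Hspa5, the main chaperone of the endoplasmic reticulum, was at 994 CPM in the normal and 389 CPM in the DSS cells, and Manf, a secreted stress factor gene, at 269 and 116 CPM. The medians of this list in clusters 1, 2, 5 and 13 were -0.85, -0.81, -0.47 and 0.09, so it was not lowest in cluster 6. Of 11 tight junction genes, 2 were lower by 2-fold, again beside 3.14% of all genes, Cldn2 at 18.8 and 0.892 CPM and Cldn8, a sealing claudin gene, at 61.3 and 19.0 CPM. Cldn7, Cldn3 and Cldn23 were at 1870, 802 and 292 CPM in the normal and 2091, 870 and 373 CPM in the DSS cells.

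Of 16 ion and water transport genes compared, 3 were at least 2-fold higher and 1 lower, beside 2.96% and 3.14% of all compared genes, with a median of -0.23. Their summed level was 36265 CPM in the normal and 26558 CPM in the DSS cells. Car1 alone made up 31540 and 22813 CPM of it, so the sum mainly follows Car1. The higher ones were the low-level Clca4a (6.73 and 30.3 CPM), Aqp8 and Aqp4 (64.6 and 131 CPM), and the leukocyte-rich clusters of the DSS library held 23.4 CPM of Aqp8, against 47.3 CPM in cluster 6. The lower one was the sodium channel subunit gene Scnn1a (14.8 and 6.24 CPM). Of 15 fat oxidation and ketogenesis genes, 0 reached a 2-fold ratio in either direction and the median was -0.30. Of 14 glycolysis and hypoxia genes, 1 was lower, the growth factor gene Vegfa at 40.4 and 10.1 CPM, and Ndrg1 was at 120 and 229 CPM without reaching 2-fold, and the median was 0.05.

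The regenerative up-list and down-list are the study's overlap of genes that changed in 3 published injury models, of which DSS is one. Of 46 up-list genes compared, 7 were at least 2-fold higher, beside 2.96% of all compared genes, and 2 lower, beside 3.14%, with 23 above and 23 below 0 and a median of 0.02. The 7 were Reg3g, Cd74, Reg3b, Capg, AW112010, Duox2 and Sprr1a, and the 2 lower were Epha2 and Socs1. Sprr1a, a cornified envelope gene seen in wounded epithelium, was at 105 and 247 CPM, and the invariant chain gene Cd74 was at 7.40 and 45.5 CPM. Of 42 down-list genes, 0 were higher and 1 was lower, with a median of 0.06. The same shares of all genes, 2.96% higher and 3.14% lower, stand beside the next lists. Of 18 wound and fetal-like genes, Sprr1a and Lama3 were higher and Krt7 was lower, with a median of -0.05. Of 9 YAP/TAZ targets, 0 were higher and 2 lower, with a median of -0.53. Clu was at 3.37 and 2.68 CPM.

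Of 19 interferon and MHC class I genes, 1 was higher and 0 were lower, and 15 lay below 0, with a median of -0.17. The list medians in clusters 1, 2, 5 and 13 were -0.49, -0.42, -0.38 and -0.33, and over all other colonic cells, whose make-up differed between the libraries, -1.06. The 1 was Ifit3, at 4.71 and 12.5 CPM. Of 6 cytokine and chemokine genes compared, Il18 was higher, at 61.9 and 155 CPM, and Cxcl1 was lower, at 22.2 and 7.14 CPM. None of 13 gut identity transcription factors and 9 mucin glycosylation genes reached a 2-fold ratio, with medians of -0.02 and 0.08. Ribosomal protein genes (82 compared, median 0.17) and mitochondrially encoded genes (13 compared, median -0.12) gave no call either. Too few members were compared for a median in the MHC class II, Wnt, Notch, S phase and mitosis lists.

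**Figure D5:**
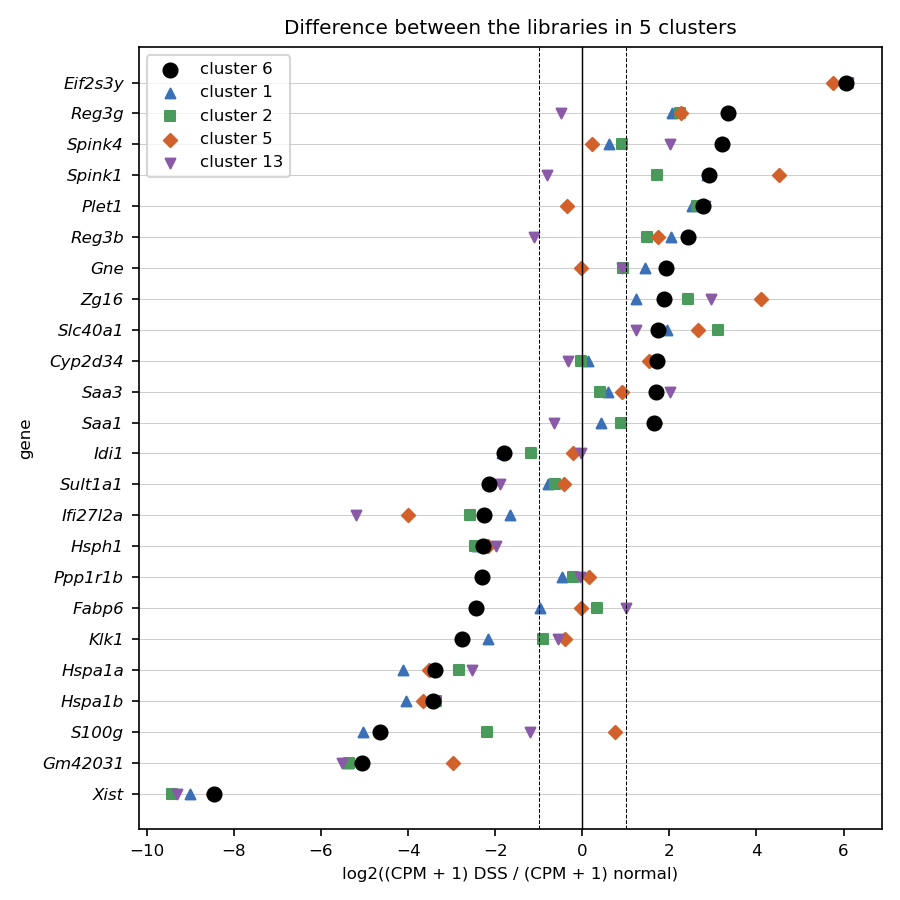
Difference between the libraries (log2 ratio of CPM + 1, DSS over normal) of the 12 genes highest and 12 lowest in DSS in cluster 6 (black circles), beside the same genes in clusters 1, 2, 5 and 13, with dashed lines at 2-fold. For Hspa1a, Hspa1b, Hsph1, Xist and Eif2s3y all 5 clusters lie on one side, whereas the Ppp1r1b ratio of -2.31 in cluster 6 stands apart from -0.46 to 0.15 in the others.

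The leading genes were last looked up in the enterocytes of the organoid libraries, which came from the small intestine and were cultured, so the levels are given without a comparison. Car1 had 0 UMIs in the enterocytes of all 8 organoid libraries. Slc51a was at 61 ± 1.70 CPM (SD, n = 3) in ENR-organoids, 24.1 ± 20.4 CPM (SD, n = 3) in Hyper-organoids and 17.2 and 22.2 CPM in the 2 -VE-organoid libraries. The libraries of a group differed in passage, and the Hyper-organoids also in origin (ENR-organoids or primary crypts). The SD is therefore not a spread of like replicates. Slc10a2 was at most 4.35 CPM in ENR-organoids and 10.3 CPM in Hyper-organoids. The Hyper-organoid libraries held between 7 and 58 enterocytes each. Reg3b ranged from 116 to 551 CPM in ENR-organoids and from 14.1 to 392 CPM in Hyper-organoids.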

How the data were processed

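Single-cell libraries were made with the 10x Genomics 3' kit. Per the submitters' processing notes, reads were processed with Cell Ranger 3.0.0 and Seurat 3.1.4 on mm10, while the file headers of the matrices name Cell Ranger 3.1.0. The deposited values are UMI counts per gene and cell, not normalized by the authors. The clusters are those of the authors' annotation, and the settings used to cluster the colonic cells are not given in the sources used here. Kept cells had at least about 500 genes and at most 20% mitochondrial UMIs. The methods, written for 8 samples, state a bound of 1500 genes and a different mitochondrial bound. In cluster 6, 54 of 64 normal and 133 of 157 DSS cells had 1500 genes or more. Doublets were not called again, and leaving out the 5% of cells with the most UMIs was an alternative.

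Counts were summed over the cells of a cluster in each library and divided by their total, over 23810 genes (Python 3.11.15, scipy 1.17.1; edgeR 4.0.16 for TMM factors as an alternative). A pseudocount of 1 CPM was used. Named genes were the 10 highest against the other colonic cells in both libraries at 50 CPM or more, the marker list members, and the 12 highest and 12 lowest in DSS at 50 CPM or more in the higher library whose 95% interval excluded 1, and others were added after their values were seen. The members, the 22 marker lists and the 23 gene groups were chosen with earlier results of these data known. A cluster with over 50% Ptprc-positive cells was called leukocyte-rich (6 of 25). The computing of folds and intervals was checked on simulated Poisson counts. These had no variation between cells or libraries, so the check says nothing about such variation. Coordinates are GRCm38 (GENCODE vM21), the build of the files.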

Additional observations from a re-analysis of the deposited data

Results flagged for a closer look

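The Reg3b difference had opposite signs in cluster 6 and cluster 13. The log2 ratio of DSS over normal was 2.43 in cluster 6 and -1.11 in cluster 13, and this difference was not tested, since each side is 1 library.

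Barcodes that the authors did not keep held the leading genes of cluster 6 above their level in the other kept cells. These are 1706 normal and 2057 DSS barcodes with at least 500 genes and more than 20% mitochondrial UMIs, and levels are per 1000000 UMIs of genes not encoded in mitochondria. In the normal library Slc51a was at 286, Slc10a2 at 115, Mal at 73.4, Car1 at 8482, Cyp2c55 at 763, 1810065E05Rik at 3389, Aldh1a1 at 219, Reg3b at 1125, Tmigd1 at 369 and Fmo5 at 39.7. In the DSS library they were at 319, 85.2, 80.0, 6643, 537, 6761, 201, 10214, 276 and 88.6 in the same order. On this scale Slc51a was at 51.2 and 44.5 in the other kept cells and at 852 and 555 in cluster 6. Slc10a2 was at 135 and 91.7 in cluster 6. Tmigd1 in the normal library (312 in cluster 6) and Fmo5 in the DSS library (84.1 in cluster 6) were higher in these barcodes than in cluster 6. All other values of the leading genes were lower in these barcodes than in cluster 6. All 2495 normal and 2813 DSS barcodes that were not kept, whatever their gene number and mitochondrial share, held 42.2% and 31.9% of the UMIs.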

How the results depend on the processing

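The number of genes called between the libraries moved with the settings. The main counts were 212 higher and 225 lower in DSS. A 5 CPM filter gave 364 higher. A 50 CPM filter gave 44 and 69, no filter 722 and 568, a pseudocount of 5 CPM 109 and 123, the mean of per-cell CPM 431 and 492, and thinning to 5000 UMIs 707 and 804. With at most 10% mitochondrial UMIs, which left 8 normal and 35 DSS cells, 1637 and 1786 were called. The share of higher genes among all calls was 48.5%, and 38.9% at the 50 CPM filter and 56.2% with edgeR's TMM factors. The cluster's share of the normal library became 1.42% at 10% mitochondrial UMIs. Its share of the DSS library became 3.05% there, 9.5% with at least 1500 genes, 9.97% without Ptprc-positive cells and 10.6% without Ptprc-rich clusters. Genes at least 2-fold above the other cells numbered 338 rather than 171 with clusters weighted equally. Of 648 named-gene values under an alternative, 92 left their counting interval and 0 changed the sign of a call, and of 252 list medians 24 moved by 0.2 or more. The alternative without the cell with the most UMIs of a gene was chosen after seeing the data. No paired analysis was possible because each condition has 1 library.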
